A study of Homo sapiens with 6 samples.

Results

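Isoforms of coding genes that open a reading frame but hold no stop codon were described in RNA of the K562 line. K562 is a human line derived from a chronic myeloid leukaemia, and it expresses erythroid genes. The study sequenced poly-A-primed, PCR-amplified cDNA on nanopores from extracellular vesicles (EV) that untreated, wild-type (WT) K-562 cells shed into their medium and that were purified by size exclusion, and from the untreated WT whole cells (WC) themselves. There were 3 EV and 3 WC libraries, all of 1 cell line. The libraries of a group are therefore replicates of culture and preparation, and p-values measure only the spread between them. By the paper, the EV and WC libraries of a replicate shared a flow cell. The main tests below did not use this pairing. The members were the 93 isoforms, from 82 genes, that the deposited isoform table assigns to a protein-coding gene and predicts to have no stop. They are 93 of 13208 isoforms in that table, of 8829 isoforms of coding genes and of 99 isoforms of any gene predicted to have no stop. The genes they belong to are called host genes below.

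A messenger RNA carries its stop codon before the 3′ untranslated region (UTR), and cleavage and polyadenylation normally follow a hexamer, AATAAA or a close variant, placed shortly before the 3′ end. A ribosome on an RNA that ends before its stop reads into the poly-A tail and stalls, and cells degrade such transcripts by nonstop decay. An oligo(dT) primer, as used for poly-A cDNA, can also anneal to a stretch of adenines inside an RNA, so that adenines in the genome directly after a 3′ end are a usual quality measure of long-read ends.

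The label rests on the predicted frame of each model, so reading that frame again checks the models and is no independent support for the label. Read along the hg38 genome, the predicted frame began with ATG in 93 of 93 members, and 0 of 93 held an in-frame stop between that ATG and the 3′ end. The open frames were 44 to 12240 nt long, with a median of 1034 nt. The splice chain of 31 members matched an annotated transcript by name, and 2 of these, ZNF721-202 and RRBP1-205, are annotated with an incomplete 3′ end. Mapping quality was at its highest value, 60, for 85 members. It was lower for the other 8, down to 2 for PRRC2A and 6 for BDP1. Of these 8, SSBP1-216 and BDP1 lay on alternate contigs of chromosomes that the files name GL383534.2 and KI270897.1. Members not in the annotation are named here by their gene and the first characters of the identifier in the files.

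The sequence at the 3′ end is shown for the members with the most reads or the clearest pattern, as chosen after their values were seen. In the first set the last 10 bases of the isoform are in lower case and the following 20 genome bases in capitals, on the transcript strand of hg38. In these 6 ends the capitals are rich in A.
SON 9d6ee3b5 (chr21:33549559-33549588, plus): aagcataaaaAGCACAAAAACAAAAAGAAG
POLR1F-201 (chr7:19698402-19698431, minus): gttaccaaagTGACCATAAAAAGAAAAAAA
SRRM2 (chr16:2758515-2758544, plus): gaagaagaagAAAAAGAAGAAAGATAGAGG
HSP90AA1 293ffd1f (chr14:102084913-102084942, minus): caaagaagaaGAAAAAGAAAAAGAAGAGAA
PA2G4 efdd887e (chr12:56111500-56111529, plus): cgaaaaacccAGAAAAAGAAAAAAAAGAAG
PSMA7-203 (chr20:62136887-62136916, minus): gctgaaattgAAAAAGAAAAAGAAGAAAAC

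In SREK1IP1-204 adenines stood on both sides of the end, and EIF3M-208 had 3 in the 20 bases after it. SSB d6fc7aef and DENR 76b7a04e ended where an exon meets the GT of an intron. The capitals again mark the genome after the end.
SREK1IP1-204 (chr5:64724412-64724441, minus): gagaaaaaagGAAAAGCATTCTTCTACACC
EIF3M-208 (chr11:32602368-32602397, plus): aaaacagcctTTTGAGTCTTTCTGATACCT
SSB d6fc7aef (chr2:169807062-169807091, plus): tacttttcaaGTAAGTCTTTTTGCTGATGT
DENR 76b7a04e (chr12:122762197-122762226, plus): accaacagagGTAAGTTCTTTAATTTTTTT

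A smaller set carried a poly-A signal. Here the last 30 bases of the isoform are given, and the capitals mark the signal.
RPL10 (chrX:154400888-154400917, plus): caccAATAAAttctacttcctgtccaccta
KBTBD3-205 (chr11:106054231-106054260, minus): ctttttAATAAAaagtattaatcttgtcaa
BBS7-202 (chr4:121861498-121861527, minus): cctcactgaaagcATTAAAgctatgtatgt

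Most members had few reads. The isoform table gives 1 level per isoform, the authors' mean of normalized reads over all 6 libraries, so that no level of a member in EV or WC libraries was had, and the comparison of EV and WC isoforms that the table also holds was not used here. The median member had 7.69 normalized reads, with a range of 2.37 to 382. The 76 productive isoforms of the same genes, which have a start and a regular stop, had a median of 18.9 and a range of 2.41 to 4839. Over all coding genes the medians were 10.3 for productive isoforms, 8.84 for isoforms with a premature stop and 8.32 for those without a start. Of the members 59 were under 10 reads and 31 were under 5. All members together held 1574 normalized reads, 0.275% of the table, and the first 3 by level held 41.8% of that sum. These 3 were SON 9d6ee3b5 with 382 reads, SREK1IP1-204 with 156 and EIF3M-208 with 120.5. SON encodes a large nuclear-speckle protein that binds RNA and DNA and acts in splicing. SREK1IP1 encodes a partner of a splicing regulator, and EIF3M a subunit of the translation initiation factor eIF3.

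Relative to the annotation, most members stopped inside the coding sequence. The label itself favours such ends, since a model that reaches the annotated stop in its frame holds a stop. For each gene the canonical transcript of GENCODE v44 served as the measure. The 3′ end lay in a coding exon of it for 71 members of 64 genes, in an intron for 10, in the 3′ UTR for 8 and outside the transcript for 2, while 2 members on alternate contigs had no such transcript. In all, 81 members ended before the annotated stop. The coding bases left after their end had a median of 745 and ranged from 1 to 7689, which is a median of 28.7% of the coding sequence. More than 90% of it was left by 5 members, namely those of SON, SRRM2, PLEKHA4, ZNF721 and RRBP1, and 23 left more than 50%. At the other side 22 members ended at most 110 coding bases before the end of the stop codon.

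**Figure D1:**
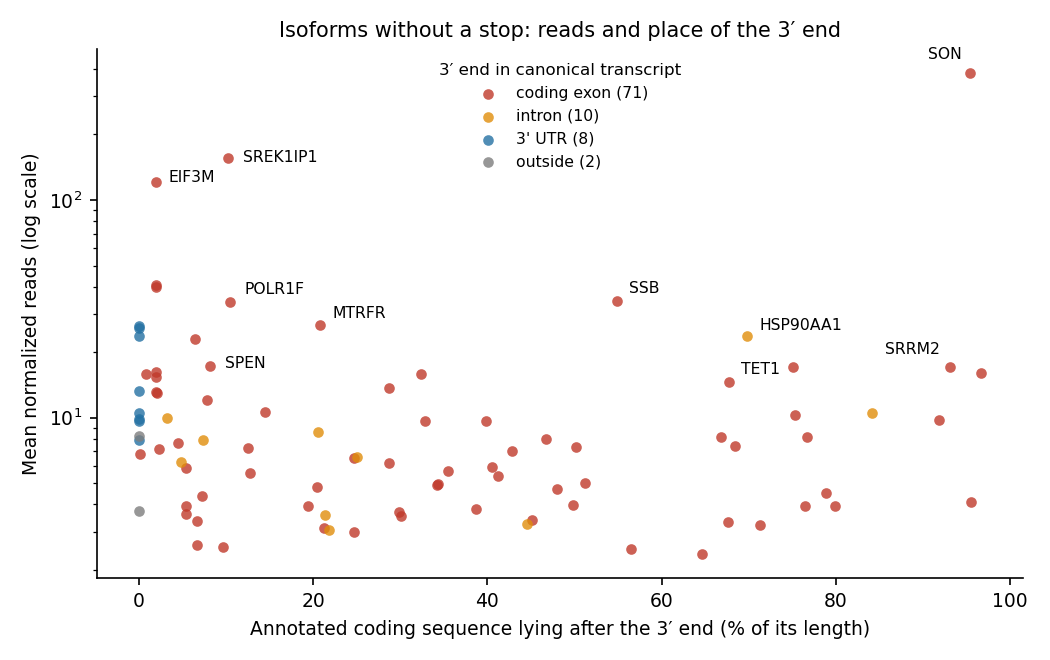
Each point is 1 of the 91 members with an annotated canonical transcript; the x axis gives the part of the annotated coding sequence that lies after the 3′ end (%), the y axis the mean normalized reads over all 6 libraries on a log scale, and colour the place of the end. SON 9d6ee3b5, at 382 reads, left 95.4% of the coding sequence, SREK1IP1-204 left 10.3% and EIF3M-208 left 2.0%, and the 8 ends in the 3′ UTR stand at 0.

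The ends in coding exons fell more often on earlier exons than on the last. Of the 71, 30 members of 24 genes ended in the last annotated exon and 41 members of 40 genes in an earlier one. SON 9d6ee3b5 was 360 nt long in 3 exons and ended in exon 3 of 12, 6944 coding bases before the end of the stop codon (95.4% of the coding sequence). The SRRM2 member (17.1 reads) ended in exon 5 of 15 with 93.1% of the coding sequence after it. SRRM2 is a large scaffold protein of nuclear speckles, as is SON. SSB encodes the La protein, which binds the 3′ ends of new RNA polymerase III transcripts, and its member ended at the close of exon 6 of 12 with 54.8% left. SREK1IP1-204, in contrast, reached the last of 5 exons and ended 48 coding bases before the end of the stop, or 10.3%. POLR1F-201, from a gene for an RNA polymerase I subunit, left 106 coding bases, and MTRFR-201, from a gene for a mitochondrial translation release factor, left 104. The member of MED29, a Mediator subunit, ended inside the stop codon, 1 base short of it. The member of SPEN, a large transcriptional repressor, was 10143 nt long in 12 exons and ended 902 coding bases before the end of the stop, and UBR4 32cdfa44, of a ubiquitin ligase, was the longest at 12258 nt and 82 exons.

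For a part of the genes no isoform of the series went past the annotated stop. Among all 195235 isoform models, also those outside the table, the host genes of 20 members (14 genes) had no model that reached it. EIF3M was the clearest case. It had 6 members, the most of any gene, with 120.5, 40.8, 39.7, 16.3, 15.4 and 13.2 reads, and all 6 ended at the same base, 22 nt before the end of the canonical stop codon. All 8 isoforms of EIF3M in the table ended there, its 1 productive isoform included, as did 22 of the 23 EIF3M models of the series. The members differed in their exons (8 to 12) and in length (747 to 1221 nt). The productive isoform had 23.3 reads and is predicted to stop before this base in its own frame. SREK1IP1 had 6 models and POLR1F 2, with 0 past the stop in either.

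Against the productive isoforms of the same genes, 25 of the 41 members for which the comparison could be made ended upstream. Productive isoforms hold a stop and members do not, so the label itself favours an earlier end in members. These 41 members came from the 32 host genes with a productive isoform in the table, and the reference was the 3′ end of the productive isoform with the most reads, with a tolerance of 50 nt along the genome. The 25 upstream members of 24 genes ended 174 to 60429 nt before it, with a median of 4865 nt, and 22 of them ended at least 1 kb before it. A further 14 members of 7 genes ended at exactly the productive base, and 2 ended downstream of it. Over all 41 the median distance was 1627 nt. The ends that coincided were those of EIF3M (6), RPL18 (2), RPL10 (2), UXT, RPS19, RPL8 and COPE. When both the member and the productive isoform had to have at least 10 reads, which leaves out SON because its productive isoform had 7.91, 5 of 16 members ended upstream and the median distance was 0 nt.

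SON 9d6ee3b5 ended 27913 nt before the only productive SON isoform in the table, which had 11 exons and 7.91 reads. That isoform was 2458 nt long, shorter than the canonical SON coding sequence, so it does not stand for the full SON mRNA. HSP90AA1, the inducible cytosolic HSP90 chaperone, had 2 such members. HSP90AA1 6cc12003 (23.7 reads) ended in an intron 4244 nt before the productive end, and HSP90AA1 293ffd1f (8.20 reads) ended in exon 5 of 11 at 3884 nt before it. SSB d6fc7aef (34.2 reads) stopped 4993 nt early and began at the same base as the productive isoform. ZNF24-202 (15.9 reads), of a zinc finger repressor, stopped 2016 nt before the productive end and 9 coding bases before the end of the annotated stop. The starts of the isoforms were closer than their ends: the 5′ ends lay within 100 nt of that of the main productive isoform in 30 of 41 members, and 13 of the 25 upstream members shared its first base.

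**Figure D2:**
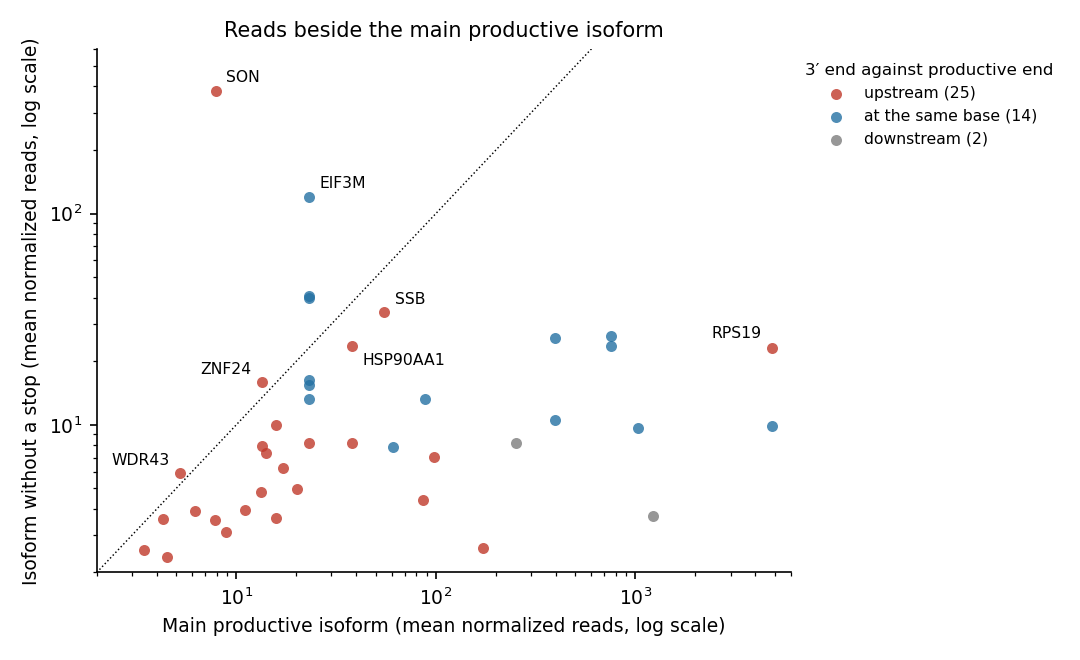
Each point is 1 of the 41 members whose gene has a productive isoform in the table; the y axis gives the mean normalized reads of the member, the x axis those of the main productive isoform of its gene (log scales), and the dotted line marks equal reads. Above the line lie 6 points, those of SON, ZNF24, WDR43 and 3 of EIF3M; the RPS19 members sit farthest to the right, beside a productive isoform with 4839 reads.

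The genome after the 3′ end was A-rich in a larger share of members than of productive isoforms; these shares are descriptions over isoforms, without a test. At least 12 of the 20 bases after the end were A in 16 of 93 members (17.2%), in 1 of 76 productive isoforms of the same genes (1.32%) and in 154 of all 6803 productive isoforms of coding genes (2.26%). The 76 came from 32 of the 82 host genes, so the members and these isoforms were not matched by gene. Among the 25 members that ended upstream of the main productive end, 7 had such an A-rich end. Isoforms predicted to have a premature stop had 3.77% and those without a start 5.22%. The 1625 models of coding genes without a stop that are not in the isoform table had 24.7%. With 14 of 20 as the minimum the share in members was 8.60%, and with 10 of 20 it was 29.03%. The 16 A-rich ends came from 16 genes and all lay in coding exons: SON, POLR1F, MTRFR, SRRM2, ZNF24, RP9, HSP90AA1 293ffd1f, EIF5B, LSG1, RSL1D1, PA2G4, CCAR1, PPIG, ANKRD12, PSMA7 and KIF5B. Of these 16, 7 were in the last annotated exon, beside 30 of all 71 ends in coding exons. The counts of A reached 16 of 20 in PA2G4, a growth-regulating RNA-binding protein, and in PSMA7, a subunit of the proteasome core. When the 20 bases were centred on the end, a window chosen after seeing the data, 13 members (13.98%) passed, among them SREK1IP1-204 and RRBP1-205, which were not A-rich after the end. Isoforms that share an end are not independent, and with 1 isoform per distinct end the share was 18.8% over 85 ends in members and 2.63% over 38 ends in productive isoforms of the same genes.

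**Figure D3:**
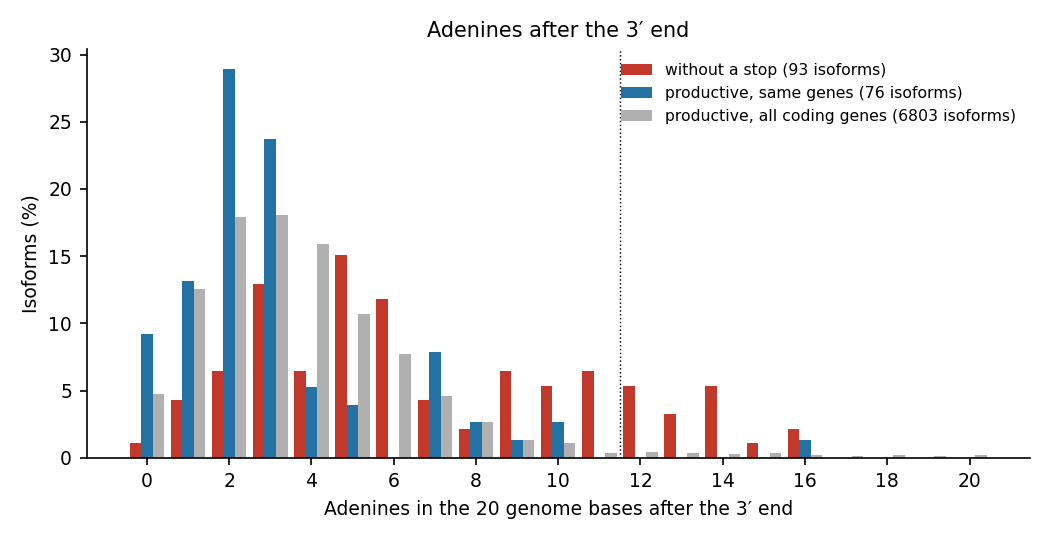
Bars give the percent of isoforms (y axis) with each number of adenines in the 20 genome bases after the 3′ end (x axis), for the 93 members, the 76 productive isoforms of the same genes and the 6803 productive isoforms of all coding genes; the dotted line marks the minimum of 12. Members spread up to 16 adenines with a median of 6, and productive isoforms of the same genes had a median of 2.

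The poly-A signal was found in a smaller share of members than of productive isoforms. The label favours this too, since most members ended before the annotated stop and so before the 3′ UTR. AATAAA or ATTAAA stood in the last 40 bases of 13 members (13.98%), of 70 of 76 productive isoforms of the same genes (92.1%) and of 5627 of 6803 productive isoforms of coding genes (82.7%). The 76 again came from 32 of the 82 host genes and had only 38 distinct ends, so ends shared by several isoforms count more than once. The share by distinct end was not computed for them. Both motifs were searched on the transcript strand only. The share was 81.3% in isoforms with a premature stop, 64.7% in those without a start and 9.72% in the models without a stop outside the table. By place, 8 of the 8 members that ended in the 3′ UTR had a signal, against 3 of 71 in coding exons and 2 of 10 in introns. The 5 members with a signal before the annotated stop were KBTBD3-205 (17.1 reads), BBS7-202 (10.5), ZNF480-205 (10.2), ZNF721-202 (9.72) and MTF2 c1fa69bb (3.26). BBS7 encodes a subunit of the BBSome, a complex of primary cilia, and ZNF480 and ZNF721 encode zinc finger proteins. Neither an A-rich window, after or around the end, nor a signal was found in 61 members (65.6%), compared with 5 of 76 productive isoforms of the same genes (6.58%).

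Averaged over distinct ends, the base composition differed on both sides. In the first 20 bases after the end, A made up 36.3% in members, 21.3% in productive isoforms of the same genes and 20.1% in all productive isoforms, while T made up 24.7% in members, 40.8% in productive isoforms of the same genes and 41.5% in all productive isoforms. In the last 20 bases before the end the share of A was 37.5% in members and 39.1% in productive isoforms of the same genes, but there the productive isoforms had a peak of A about 20 bases before the end that members lacked.

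**Figure D4:**
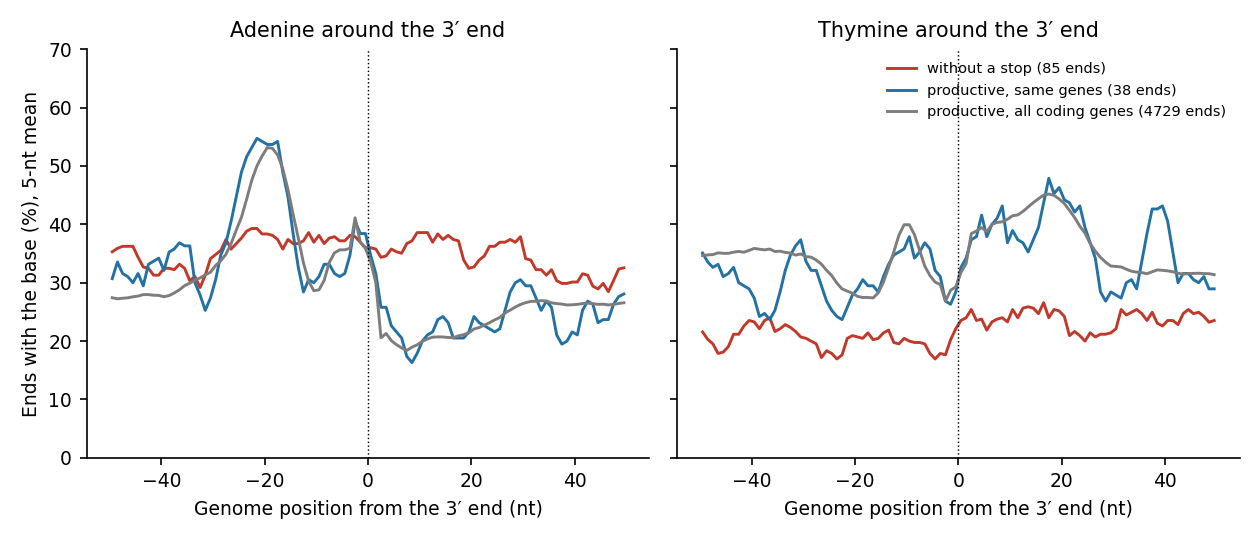
Lines give the percent of distinct 3′ ends with adenine (left) or thymine (right) at each genome position within 50 nt of the end, as a 5-nt running mean, for members (85 ends), productive isoforms of the same genes (38 ends) and all productive isoforms of coding genes (4729 ends). The member line is nearly flat, while both productive lines show a rise of adenine about 20 nt before the end and of thymine after it.

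An annotated splice donor was the end of 9 members. Within 2 nt of the last base of an annotated exon, a measure chosen after seeing the data, lay the ends of SSB, RPS19 4a0db157, NOP58, ALDH1A2, TPR, DENR, IGF2BP1, MTF2 and RUFY3. This was 9.68% of members, 0% of the 76 productive isoforms of the same genes and 2 of 6803 productive isoforms of coding genes (0.0294%). It was 0.168% of isoforms with a premature stop and 0.282% of those without a start. Last exons of transcripts were left out of the donor sites, so isoforms that reach a last exon could hardly count. The low share in productive isoforms was thus largely set by the measure. The dinucleotide GT directly after the end was, by itself, no more frequent, with 9.68% of members and 10.5% of productive isoforms of the same genes. RPS19 4a0db157, of a protein of the small ribosomal subunit, had 23.1 reads and ended at the close of exon 5 of 6, 28 coding bases before the end of the stop and 1664 nt before the productive end. Of the 10 members that ended in an intron of the canonical transcript, 4 were at such donors and 6 were not, namely HSP90AA1 6cc12003, BBS7-202, TTC3, KIF20B, PHACTR2 and UBR4. For BBS7, TTC3 and PHACTR2 an exon of another annotated transcript covered the end.

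Past the annotated stop, without a stop in their own frame, ended 10 members. Of these, 8 members, in RPL18 (2), RPL10 (2), RPS19, RPL8, UXT and COPE, ended in the 3′ UTR at the base of the productive isoform. RPL18 f20d3333 (26.3 reads) and RPL18 4adc8ab6 (23.7 reads) had 6 exons, and the main productive RPL18 isoform had 7 with 756 reads. The RPL10 member with 25.9 reads had 5 exons, against 7 in the main productive RPL10 isoform, with 397 reads. RPS19 ca0dff18 (9.84 reads) had 5 exons and UXT c497a4fe (13.3 reads) 5, against 6 and 7 in their productive isoforms. UXT encodes a prefoldin-like cochaperone. COPE faf1923b (7.87 reads), of a coat protein of Golgi vesicles, had 10 exons like its productive isoform. Downstream of the productive end lay the members of NDUFA11 (8.22 reads), a respiratory complex I subunit, and of ENSG00000284931 (3.72 reads). Their distances were -1735 nt and -22615 nt, where a negative value means that the member ended farther downstream. The member of ENSG00000284931, 440 nt long in 3 exons, spanned chr11:5225655-5254781, which holds several beta-type globin genes.

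Members were shorter than the main productive isoform of their gene. An end before the stop, which the label favours, by itself makes an isoform shorter. Among the 41 with such an isoform, 33 were shorter and 8 longer, with a median difference of -335 nt, and 24 had fewer exons, 9 as many and 8 more. Over all 93 members the median length was 1242 nt (239 to 12258) with 7 exons, against 1027 nt (441 to 8525) with 7 exons in the 76 productive isoforms of the same genes. The 76 came from 32 of the 82 host genes, so these medians cover different sets of genes. All 6803 productive isoforms of coding genes had a median of 1577 nt with 7 exons. With at least 10 reads the median length of members was 723 nt. Members of 5 kb and more, of which there were 13, had at most 17.2 reads.

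Within their genes the members ranged from the only isoform to a trace. For 39 members no other isoform of the gene was in the table, and 52 members of 50 genes had no productive isoform there. Members made up 11.8% of the isoform reads of the host genes, and 9.20% without SON. Among genes with a productive isoform and at least 20 reads, the largest parts were 98.0% in SON (of 390 reads), 88.9% in EIF3M (of 277), 54.3% in ZNF24, 37.2% in TPR, a nuclear pore basket protein, 34.9% in NOP58, a core protein of box C/D snoRNPs, and 29.1% in CEP57. The part in SON is beside a productive isoform shorter than the canonical SON coding sequence. In ribosomal protein genes the part was small: a member took 0.424% and 0.181% of the isoform reads in RPS19, and 3.48% and 1.42% in RPL10. A member had more reads than the main productive isoform in SON, ZNF24, WDR43 and, for 3 members, EIF3M.

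By gene group, cytosolic ribosomal proteins had 7 members in 4 genes, of 564 isoforms of such genes in the table, and translation initiation and elongation factors had 7 in 2 genes (6 in EIF3M and 1 in EIF5B), of 163. Zinc finger genes named ZNF had 3 members of 63 isoforms, chaperones 2 of 139, both HSP90AA1, proteasome subunits 1 of 126, PSMA7, and nuclear-encoded respiratory chain subunits 1 of 238, NDUFA11. Splicing factors and hnRNPs (128 isoforms), mitochondrial ribosomal proteins (144), solute carriers (75), histones (50), RAB GTPases (44), DEAD and DEAH box helicases (42), globins named by their own symbol (15) and a list of genes known for an early poly-A site (3) had 0 members each. No mitochondrially encoded mRNA was among the isoforms of coding genes as defined here.

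EV and WC were compared here for the host genes, through the gene counts, which add up all isoforms of a gene. The counts summed to 560157 to 881337 in EV libraries and to 2480558 to 3178211 in WC libraries, so that EV values were less precise. Markers of K562 (8 erythroid and leukaemic genes) summed to 244 to 416 reads in EV and 1230 to 1481 in WC libraries, and 5 markers of other blood cells to 1 to 2 reads in EV and 11 to 15 in WC libraries, while MS4A1 had 0 in every library. Of the 82 host genes 75 passed the filter on low counts. Counts are relative to each library, so fewer RNA molecules per vesicle and fewer vesicles with the RNA cannot be told apart.

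At an adjusted p under 0.05 (quasi-likelihood test of edgeR, Benjamini-Hochberg over 8716 genes), 25 of the 75 host genes (33.3%) were higher and 15 (20%) lower in EV than in WC, against 22.8% higher and 21.4% lower among all genes tested. Among all 6759 protein-coding genes tested 14.9% were higher and 22.2% lower. The tested host genes had a median level of 34.1 CPM and the tested protein-coding genes 17.1 CPM. The shares called were therefore not matched for level, and genes with more counts are called more readily. The median log2 fold change, EV over WC, was 0.26 for host genes, -0.13 for all genes and -0.24 for protein-coding genes. These values depended on the scaling. When libraries were scaled by their total counts instead of TMM, the log2 fold changes of all genes shifted by a median of -0.65, 12.2% of all genes were higher and 51.6% lower, and 7 host genes were higher and 32 lower. The 7 were HSP90AA1, PA2G4, RPL10, RPL18, RPS19, SREK1IP1 and UXT. PA2G4 had the largest log2 fold change of the 7 under total counts, 2.08. All 15 lower genes remained lower, which a downward shift of all genes by itself favours. The count of higher host genes was 12 without the filter on low counts, 14 without EV replicate 3 and 15 without WC replicate 2. It was 20, with 15 lower, when the replicate number was a block in the fit.

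Host genes of the translation machinery were among those higher in EVs, with levels given as TMM-scaled CPM. RPL10, of the large ribosomal subunit, had 2191, 1994 and 2029 CPM in EV libraries, against 645, 490.1 and 461 CPM in WC libraries. The groups did not overlap, and the change was 1.96 on the log2 scale (SE 0.14, adjusted p = 4.45e-11 in edgeR). RPS19 had 7184, 8257 and 8645 CPM in EV, against 3956, 3439 and 3078 CPM in WC, a log2 difference of 1.20 (SE 0.12, adjusted p = 1.6e-08 in edgeR). RPL18 averaged 1608 ± 95.1 CPM in EV and 841 ± 53.2 CPM in WC (SD, n = 3 each), a log2 fold change of 0.93. Genes of ribosomal proteins have many processed pseudogenes, so that reads could be split between copies. The members together held 0.605% of the isoform reads of RPS19, 4.63% of those of RPL18 and 4.90% of those of RPL10.

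SREK1IP1 was the only host gene among those higher under both scalings whose isoform reads were all in a member. It had 309, 234 and 265 CPM in EV libraries, against 129, 140.1 and 121 CPM in WC libraries. Every EV library was above every WC library, and the log2 fold change was 1.06 (SE 0.17, adjusted p = 1.2e-05 in edgeR). HSP90AA1 had 746, 1122 and 1071 CPM in EV, against 460.3, 449 and 397 CPM in WC, again without overlap, with a log2 fold change of 1.17 (SE 0.16). POLR1F was higher by 0.80 (adjusted p = 0.0039 in edgeR), and by 0.15 under total counts, where it was not called.

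SON and EIF3M, the genes with the most reads in members, did not pass the test with TMM. SON had 317, 439 and 425 CPM in EV libraries, against 334, 349 and 312 CPM in WC libraries. The groups overlapped and the log2 fold change was 0.24 (SE 0.16, adjusted p = 0.23 in edgeR), or -0.43 under total counts. EIF3M averaged 344 ± 34.7 CPM in EV and 324 ± 6.89 CPM in WC (SD, n = 3 each), with a log2 fold change of 0.09 (SE 0.15), or -0.57 under total counts. Both genes were called lower under total counts (adjusted p = 0.012 for SON and 0.00195 for EIF3M in edgeR). SSB (0.50, adjusted p = 0.028 in edgeR) and MTRFR (0.62, adjusted p = 0.044) were called higher with TMM, but each lost the call in 8 of 11 alternatives. Under total counts they changed sign, to -0.16 for SSB and -0.026 for MTRFR.

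Among the lower host genes, SRRM2 had 34.3, 67.1 and 50.2 CPM in EV libraries, against 146, 140.1 and 145 CPM in WC libraries, a log2 difference of -1.56 (SE 0.22, adjusted p = 2.1e-06 in edgeR). PRRC2C, a stress-granule protein with 2 members, had 96.0, 118 and 109.6 CPM in EV, against 244, 257 and 223 CPM in WC, with a log2 fold change of -1.17 (SE 0.18). Neither gene's groups overlapped. Next by p-value among lower genes of at least 50 CPM were IGF2BP1 (-0.27), CCAR1 (-0.11) and DENR (-0.08), and none of them passed the test, with adjusted p of 0.33 to 0.76 in edgeR. The other host genes called lower had means under 50 CPM. Among them were EGR1 (-1.28, adjusted p = 0.00061 in edgeR) and MKI67 (-1.13, adjusted p = 0.0015). Among the 75 host genes all 3 EV values lay above all 3 WC values in 24 (32%) and below them in 17 (22.7%), against 24.9% and 30.3% of all genes tested.

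**Figure D5:**
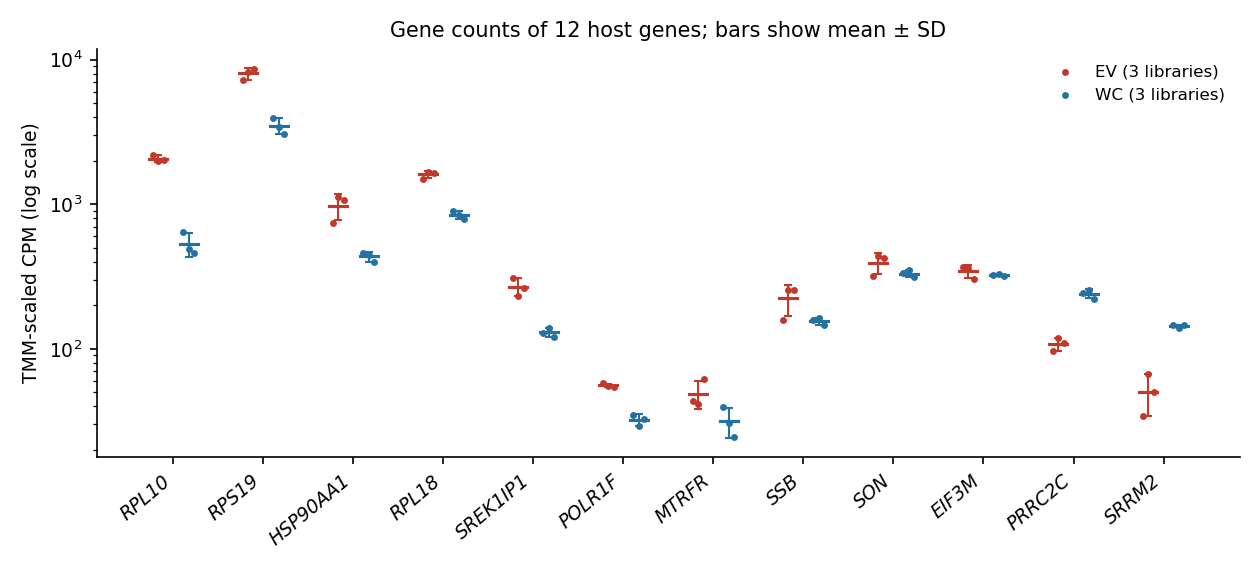
Points give TMM-scaled CPM (y axis, log scale) of the gene counts in each of 3 EV (left, red) and 3 WC (right, blue) libraries for 12 host genes, with a line at the mean and bars of 1 SD. RPL10, RPS19, HSP90AA1, RPL18, SREK1IP1, POLR1F and MTRFR lie higher in EV, PRRC2C and SRRM2 lower, and SSB, SON and EIF3M overlap between the groups; MTRFR, SSB, SON and EIF3M lie below 0 on the log2 scale under total counts.

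Host genes were split by the part of their isoform reads in members and by the bases after the end. Of the 42 tested host genes with more than 50% of their isoform reads in members 8 were higher (19%) and 10 lower (23.8%) in EV (median log2 difference 0.05), near the 22.8% and 21.4% of all genes, and of the 33 other host genes 17 were higher and 5 lower, with a median of 0.42. Of the 15 tested host genes of a member with A-rich genome after its end 9 were higher and 1, SRRM2, lower, with a median of 0.60, and of the 60 others 16 were higher and 14 lower, with a median of 0.14. Under total counts 12.2% of all genes were higher and 51.6% lower. There the genes with more than 50% in members had 1 higher (2.38%) and 23 lower (54.8%). The 33 others had 6 higher (18.2%) and 9 lower (27.3%). Genes with an A-rich end had 2 higher (13.3%) and 3 lower (20%), and the 60 without had 5 higher (8.33%) and 29 lower (48.3%). The counts under total counts were chosen after seeing the data. The difference between these groups of genes was not tested.

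The share of all gene counts in host genes was higher in each EV library than in each WC library, but this rested on ribosomal protein genes. Host genes held 1.52%, 1.59% and 1.57% of all gene counts in EV libraries, against 1.38%, 1.34% and 1.31% in WC libraries. The difference of the means was 0.21 percentage points, and p = 0.1 in a two-sided exact permutation test over the 6 libraries, the smallest p that 3 against 3 allow. Without RPS19, RPL8, RPL10 and RPL18, a set left out after seeing the data, the other host genes held 0.413%, 0.478% and 0.457% in EV libraries, against 0.537%, 0.561% and 0.576% in WC libraries, a difference of -0.11 percentage points (exact p = 0.1, again the smallest possible). Of the counts of protein-coding genes alone, all host genes held 3.25% ± 0.10 in EV and 2.41% ± 0.09 in WC libraries (SD, n = 3 each).

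Not tested were 7 host genes, among them 3 whose members had reads while the gene had none. SSBP1 and BDP1 on alternate contigs and ENSG00000284931 had a count of 0 in all 6 libraries, although their members had 17.6, 11.7 and 3.72 normalized reads. CCPG1, LSG1, NDUFA11 and UTP23 had 0 to 7 reads in each EV library and 1 to 33 in each WC library.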

How the data were processed

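The authors called bases with Guppy 6.2.1, aligned reads to hg38 (minimap2 2.24) and counted them over GENCODE v41 genes with featureCounts, set for long reads. Per library, the deposited table holds raw counts. Isoforms came from FLAIR, and their productivity from its predictProductivity step. The deposited isoform signal is the authors' mean of reads per isoform divided by DESeq2 size factors, over all libraries. The deposited score of each isoform model is the authors' mapping quality. The isoform table and a gene table also hold fold changes and p-values of the authors' own comparison, which were not used.

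Members and gene lists were chosen with earlier results of these data known. Each member was matched by identifier to its model, and 3′ ends, windows and frames were read from hg38. Annotation came from GENCODE v44. Genes (68201 after 46 repeated lines were dropped) entered edgeR 4.0.16 under R 4.3.3, with TMM factors, filterByExpr and a robust quasi-likelihood fit with Benjamini-Hochberg adjustment. Named were the 12 members with most reads, 4 per place of the end, 6 genes by part of reads, 5 host genes per direction by p-value of at least 50 CPM, up to 3 per gene list and the genes with most members. Names outside this rule were chosen after their values were seen. Alternatives were RLE and total-count scaling, no expression filter, DESeq2 1.42.0, a replicate block, leaving out each library, and other tolerances, windows and read minimums. On simulated counts for EV against WC, from 8716 genes, edgeR found 44%, 90%, 92% and 98% of 50 genes each changed by 1, 2, 3 and 4 on the log2 scale. Other tools were Python 3.11.15, pandas 2.3.3, numpy 2.4.6, scipy 1.17.1, pysam 0.24.0 and matplotlib 3.10.9. Values of a withheld item are not reported here.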

Additional observations from a re-analysis of the deposited data

How the results depend on the processing

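The isoform results have no replicates, since 1 level per isoform was used, and rest on few reads for most members. Gene counts describe all isoforms of a host gene, EV libraries were shallower than WC libraries, and the cause of each change below was not tested. The count of host genes higher in EVs, 25 in the reported fit, was 7 with total-count scaling and 12 without an expression filter, and 14 to 21 when a library was left out (14 without EV replicate 3, 15 without WC replicate 2). The count lower in EVs, 15, was 32 with total-count scaling and 12 to 15 when a library was left out. The median log2 fold change of host genes was -0.40 with total-count scaling. Under a replicate block 20 host genes were higher and 15 lower, and 35 of the 40 calls kept their direction. By the paper, the EV and WC libraries of a replicate shared a flow cell. Same-numbered libraries are read here as such pairs, which the reported fit did not use. The correlations of deviations between same-numbered EV and WC libraries were 0.070, 0.027 and 0.0085, none over 0.1. Low correlations cannot decide whether libraries were paired by design. The difference in the share of counts in host genes was 0.85 percentage points over protein-coding genes, -0.11 without the ribosomal protein genes (chosen after seeing the data), and 0.20 to 0.23 when a library was left out. Single genes changed sign as follows. With total-count scaling the log2 fold changes were -0.57 for EIF3M, -0.026 for MTRFR, -0.43 for SON and -0.16 for SSB. EIF3M had -0.13 without an expression filter, and CCAR1 ranged from -0.51 to 0.13 when a library was left out, with 0.13 without EV replicate 1. No paired analysis was possible for the isoform results because they rest on a mean over libraries. Of these, 5 of 16 members ended upstream where both the member and the productive isoform had at least 10 reads. The percent of members with A-rich genome after the end was 8.60 at 14 of 20, 29.03 at 10 of 20 and 7.53 for a run of 6 A. The percent with a poly-A signal was 7.53 for AATAAA alone and 23.5 at 10 reads or more. The median length was 723 nt at 10 reads or more, and members held 9.20% of the isoform reads of host genes without SON. The tolerance, the choice of the productive reference end, the window centred on the end and leaving out members of lower mapping quality or on alternate contigs moved no other isoform result past the limits set for it; the last 2 were chosen after seeing the data.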
